A study of Mus musculus with 3 samples.

Results

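The 9 genes described here encode the enzymes that methylate lysine 9 of histone H3 (H3K9), the HP1 proteins that bind that mark, and the corepressor that joins them: Ehmt1, Ehmt2, Suv39h1, Suv39h2, Setdb1, Cbx1, Cbx3, Cbx5 and Trim28. They were chosen by symbol, as writers and readers of H3K9 methylation, and are 9 of 46095 rows in the gene table. Per the authors, the demethylase PHF8 removes mono- and dimethyl H3K9 among other marks, and trimethyl H3K9 is not among the marks they list for it. All 9 were among the 18216 genes with enough reads to be tested. Ehmt2 passed that filter only through the TRAMP library, where it was highest. RNA came from prostate tumor tissue of male TRAMP mice at 37 weeks of age, a strain whose prostatic epithelium carries a transgenic SV40 oncoprotein, so both groups bore that transgene. The TRAMP group, with wild-type Phf8, was 1 library, and the Phf8-KO group, TRAMP mice that also lacked Phf8 from a knockout allele inherited from the mother, was 2 libraries. Each library was an equal-mass pool of RNA from 3 mice. The single TRAMP pool gave no measure of spread within that group. Every test took its spread from differences between the Phf8-KO pools, in the gene itself and over all genes.

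Methylated H3K9 marks chromatin in which genes and repeats are kept silent. SUV39H1 and SUV39H2 place the trimethyl mark on the repeats around centromeres, EHMT1 and EHMT2 (GLP and G9a) work as a heterodimer that places the mono- and dimethyl marks in gene-rich chromatin, and SETDB1 trimethylates retroelements and selected genes. TRIM28 (KAP1) brings SETDB1 and HP1 to sites picked out by KRAB zinc finger proteins, and HP1α (Cbx5), HP1β (Cbx1) and HP1γ (Cbx3) hold methylated H3K9 through their chromodomain.

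The genes lie on 8 chromosomes of mouse build GRCm38. Trim28 spans chr7:13024152-13031032 on the plus strand and Suv39h1 spans chrX:8061171-8074760 on the minus strand. Among the other writers, Ehmt1 is at chr2:24790769-24919643 (minus), Suv39h2 at chr2:3455815-3474986 (minus), Setdb1 at chr3:95323525-95357202 (minus) and Ehmt2 at chr17:34898463-34914073 (plus). Among the HP1 genes, Cbx1 is at chr11:96788680-96808982 (plus), Cbx3 at chr6:51470154-51483704 (plus) and Cbx5 at chr15:103191546-103239904 (minus). The values are read counts over all exons of a gene, and transcripts of Ehmt2 have up to 28 exons, those of Ehmt1 up to 27 and those of each HP1 gene up to 6.

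The promoter windows of 3 genes are printed because they stand at opposite ends of the values below, Trim28 and Suv39h1 with the largest differences of the well-counted members and Cbx3 with the smallest. Each holds 250 bases before and 50 after a RefSeq start of build GRCm38.p6 and is written 5′ to 3′ on the gene's strand, with matches to the searched motifs in capitals. They are chr7:13023902-13024201 (plus strand) for Trim28, chrX:8074711-8075010 (minus) for Suv39h1 and chr6:51470366-51470665 (plus) for Cbx3.
Trim28: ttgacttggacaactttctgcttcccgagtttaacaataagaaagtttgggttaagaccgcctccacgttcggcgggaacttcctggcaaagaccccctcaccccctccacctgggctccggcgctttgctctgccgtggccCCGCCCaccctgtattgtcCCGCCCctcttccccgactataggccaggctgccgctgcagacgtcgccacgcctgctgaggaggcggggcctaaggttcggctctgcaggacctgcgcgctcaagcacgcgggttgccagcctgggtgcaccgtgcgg
Suv39h1: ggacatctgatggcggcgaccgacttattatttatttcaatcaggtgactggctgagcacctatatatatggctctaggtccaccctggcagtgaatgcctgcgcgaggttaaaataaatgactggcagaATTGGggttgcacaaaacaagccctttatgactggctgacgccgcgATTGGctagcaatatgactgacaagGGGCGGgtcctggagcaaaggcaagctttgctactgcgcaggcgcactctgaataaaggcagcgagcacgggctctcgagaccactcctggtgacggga
Cbx3: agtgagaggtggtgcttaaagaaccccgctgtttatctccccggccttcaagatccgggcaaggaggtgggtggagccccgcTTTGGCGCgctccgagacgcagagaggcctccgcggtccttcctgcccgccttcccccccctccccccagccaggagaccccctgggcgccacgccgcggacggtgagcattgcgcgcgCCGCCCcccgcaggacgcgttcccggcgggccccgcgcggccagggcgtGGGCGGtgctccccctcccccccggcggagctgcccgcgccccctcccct

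The motifs searched on both strands were the GC box GGGCGG, the NFY motif CCAAT, the ETS motif CCGGAA, the E2F motifs TTTCCCGC and TTTGGCGC, and the palindromic NRF1 motif. In the Trim28 window the capitals mark GC boxes on the opposite strand, 108 and 89 bases before the start, and in the Suv39h1 window they mark a GC box 49 bases before the start and CCAAT on the opposite strand 120 and 74 bases before it. In the Cbx3 window they mark TTTGGCGC 168 bases before the start, a GC box on the opposite strand 49 bases before it and a GC box at the start. Every member had a GC box in at least 1 window, and 35.7% of 32851 mouse promoter windows of the same length held one. TTTGGCGC, found in 0.514% of all windows, was matched in Cbx3 alone among the 9 genes, and CCAAT, found in 37.4%, was matched in Suv39h1, Setdb1 and Cbx5. CCGGAA, found in 14.9%, was matched in Setdb1 alone, while TTTCCCGC (1.07% of all windows) and the NRF1 motif (0.971%) were matched in no member. The windows printed had 64.0%, 53.0% and 75.3% G and C for Trim28, Suv39h1 and Cbx3 respectively, beside a median of 52.7% over all windows. These matches are letters in a window and do not show that a factor binds there.

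The libraries held 29954020 (TRAMP), 26747443 (Phf8-KO1) and 31876182 (Phf8-KO2) reads counted in genes, so that 3 counts correspond to 0.104, 0.113 and 0.0905 CPM (counts per 1000000 reads of the TMM-scaled library size). Phf8, the targeted gene, had 19.4 CPM in TRAMP, 15.0 in Phf8-KO1 and 15.9 in Phf8-KO2 (log2 fold change −0.33, SE 0.25, edgeR adjusted p = 0.438). Since the deleted part of Phf8 is not known here, reads summed over all its exons cannot test the genotype. The luminal keratin genes Krt8 and Krt18, which mark the epithelium of the gland, had 552, 683 and 736 CPM and 1557, 1305 and 1348 CPM in that order of libraries. Other tissue differed between the pools: skeletal muscle markers summed to 1776, 108 and 23.1 CPM, adipocyte markers to 655, 19.5 and 30.8, seminal vesicle markers to 114, 1421 and 2052, smooth muscle markers to 667, 4896 and 361, and neuroendocrine markers to 103, 43.7 and 25.7. The fold changes followed base composition as well. Over 14331 genes with a mean of at least 1 CPM, the Spearman correlation of the log2 ratio to TRAMP with the percentage of G and C (GC) in the longest transcript was 0.448 for Phf8-KO1 and 0.420 for Phf8-KO2, against 0.0430 for the ratio between the Phf8-KO pools. These points share their libraries, so the correlations are descriptions.

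Both Phf8-KO pools exceeded TRAMP for 7 of the 9 members and fell short of it for 1, Ehmt2, where 40.8% of all genes tested were higher and 42.8% lower in both pools. The fold was over 2 for Suv39h1, Suv39h2 and Trim28, beside 17.5% of all genes, and under 0.5 for Ehmt2, beside 16.1%. None passed the edgeR quasi-likelihood test (adjusted p under 0.05 and a fold over 2), which called 0.0% of all genes higher and 0.0384% lower. With p under 0.05 before adjustment, 2 members were higher, Suv39h1 and Trim28, beside 14.9% of all genes, and 0 were lower, beside 12.2%. DESeq2 called Suv39h1 and Trim28 higher among the 8 members to which it gave an adjusted p, beside 9.42% of all genes, and 0 lower, beside 4.59%. The median log2 fold change of the members was 0.38, against 0.01 over all genes tested. In bulk tumor RNA, fewer cells of a type and less RNA per cell cannot be told apart, and with markers of other tissue moving between the pools their part in these differences was not tested.

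**Figure D1:**
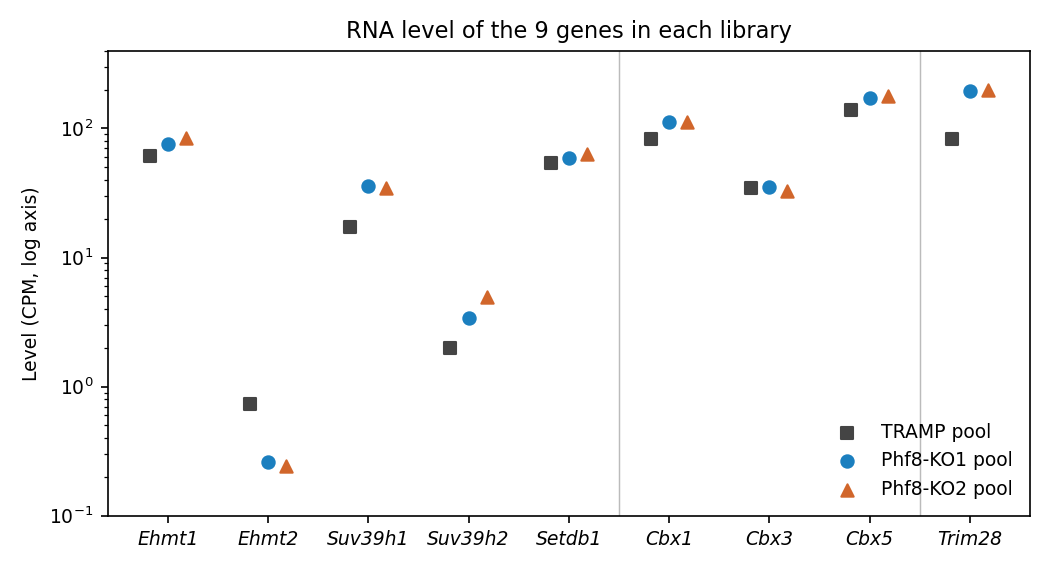
Level of each of the 9 genes in each library, in CPM on a logarithmic axis, with 1 point per pool. Trim28 and Suv39h1 show Phf8-KO points close together and about 2-fold above the TRAMP point, Cbx3 shows points on top of each other, and Ehmt2 lies below 1 CPM in every library.

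Suv39h1, an enzyme of centromeric heterochromatin, was the writer with the clearest difference. It had 496 counts in TRAMP, 960 in Phf8-KO1 and 1143 in Phf8-KO2, or 17.2, 36.0 and 34.5 CPM. The Phf8-KO pools lay close together and above the TRAMP pool, and their mean of 35.3 ± 1.08 CPM (SD, n = 2) was 2.05 times the TRAMP level. The log2 fold change was 1.04 (SE 0.20), with an adjusted p of 0.107 by edgeR and 0.0268 by DESeq2. Counting error alone put the ratio to TRAMP between 1.88 and 2.34 in Phf8-KO1 and between 1.81 and 2.24 in Phf8-KO2, and the ratio of the Phf8-KO pools to each other was 0.957 (0.878 to 1.04). Such intervals compare libraries, not genotypes. An antisense gene, Gm14820, covers 14.6% of the Suv39h1 exon sequence, and reads of the pair could not be told apart where counting ignored strand, which the sources used here do not state.

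Suv39h2, its paralog, was counted far less often. It had 58 counts in TRAMP, 91 in Phf8-KO1 and 165 in Phf8-KO2, or 2.01, 3.42 and 4.98 CPM. Both Phf8-KO pools lay above TRAMP but apart from each other, at a ratio of 1.46 (counting interval 1.12 to 1.90). The mean of 4.20 ± 1.11 CPM (n = 2) was 2.09 times TRAMP, a fold as large as that of Suv39h1 with an SE 3 times wider on the log2 scale (1.06, SE 0.59, edgeR adjusted p = 0.319). Dclre1c, on the opposite strand, shares 8.1% of the Suv39h2 exon sequence and had 1024, 546 and 685 counts, lower in the pools in which Suv39h2 was higher.

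Setdb1 and Ehmt1 differed less. Setdb1, the SET-domain enzyme that works with TRIM28, had 1570, 1578 and 2105 counts in TRAMP, Phf8-KO1 and Phf8-KO2, or 54.3, 59.2 and 63.5 CPM (log2 fold change 0.18, SE 0.18, edgeR adjusted p = 0.567). Ehmt1, the GLP subunit of the heterodimer, had 1770, 2014 and 2788 counts, or 61.3, 75.6 and 84.1 CPM (log2 fold change 0.38, SE 0.19, adjusted p = 0.283). For both genes the Phf8-KO pools lay above TRAMP, at 1.13 times for Setdb1 and 1.30 times for Ehmt1, and the pools themselves differed beyond counting error, with a Phf8-KO2 to Phf8-KO1 ratio of 1.07 and 1.11. The Setdb1 exons share 75 bases with Cers2.

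Ehmt2, the G9a subunit, was nearly uncounted. It had 21 counts in TRAMP, 7 in Phf8-KO1 and 8 in Phf8-KO2, or 0.727, 0.263 and 0.241 CPM, while its partner Ehmt1 had at least 1770 counts in every library. Both Phf8-KO pools lay below TRAMP (log2 fold change −1.51, SE 0.96, edgeR adjusted p = 0.374), and the counting interval of the ratio ran from 0.130 to 0.883 in Phf8-KO1 and from 0.127 to 0.781 in Phf8-KO2. The gene passed the low-count filter only through TRAMP, and DESeq2 gave it no adjusted p. The genes around it were uncounted too. Within 500 kb of Ehmt2, which lies in the major histocompatibility region, 57 of 62 other protein-coding genes (91.9%) were under 1 CPM in every library, against 34.9% of 20463 protein-coding genes in the annotation. Around the other members that share ran from 6.06% (Setdb1) to 61.9% (Cbx5). Bag6, Ddx39b, Csnk2b, Clic1 and Rnf5, neighbors that most cells use and that were named after their values were seen, had 0 counts in all 3 libraries. The count of Ehmt2 cannot be read as the level of its RNA, nor its ratio as a difference between genotypes. The cause of the missing counts was not tested.

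**Figure D2:**
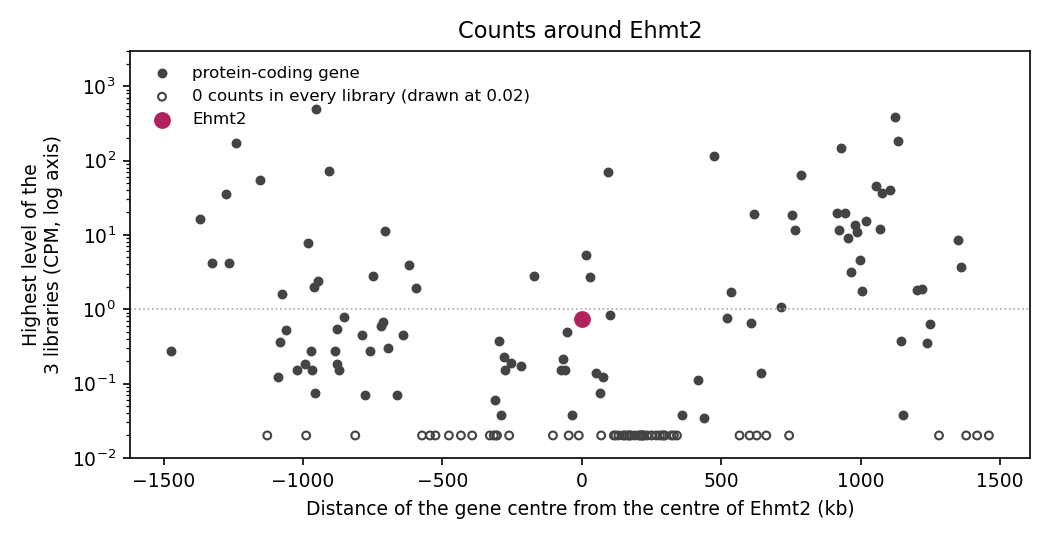
Highest CPM among the 3 libraries for each protein-coding gene around Ehmt2, on a logarithmic axis, against the distance of the gene from Ehmt2. Most genes within 500 kb on either side, Ehmt2 included, sit below 1 CPM.

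The HP1 genes divided. Cbx5 (HP1α) had 3999 counts in TRAMP, 4613 in Phf8-KO1 and 5876 in Phf8-KO2, or 138, 173 and 177 CPM. Cbx1 (HP1β) had 2380, 2982 and 3740 counts, or 82.4, 111.9 and 112.9 CPM. In both genes the Phf8-KO pools lay within counting error of each other and above TRAMP, at 1.27 times for Cbx5 (log2 fold change 0.34, SE 0.19, edgeR adjusted p = 0.317) and at 1.36 times for Cbx1 (0.45, SE 0.18, adjusted p = 0.218). Neither difference passed the test.

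Cbx3 (HP1γ) had 991 counts in TRAMP, 945 in Phf8-KO1 and 1092 in Phf8-KO2, or 34.3, 35.5 and 33.0 CPM. The TRAMP pool lay between the Phf8-KO pools, and the Phf8-KO mean of 34.2 ± 1.77 CPM (n = 2) was 0.997 times the TRAMP level (edgeR adjusted p = 0.991). Counting intervals of the ratio to TRAMP, 0.945 to 1.13 and 0.881 to 1.05, included 1 in both pools. Not all Cbx3 reads need be in that row, however. The table also lists 6 rows named as Cbx3 pseudogenes, between 90.2% and 99.8% identical to its transcripts over 337 to 552 bases. Other processed copies with a row held 0 counts. Together the named copies held 2165, 2559 and 2109 counts in TRAMP, Phf8-KO1 and Phf8-KO2, more than Cbx3 itself, and 1 of them, Cbx3-ps8, held 1540, 1932 and 1440. Cbx3 with these copies came to 109, 132 and 96.6 CPM, and the TRAMP value again lay between the Phf8-KO values. The level of Cbx3 is therefore uncertain by the share of copy reads that it gave.

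Both Cbx3 and Cbx5 start close to a gene for an RNA-binding protein that is read the opposite way. Hnrnpa2b1 starts 466 bases from Cbx3 and had 1037, 1074 and 1021 CPM in TRAMP, Phf8-KO1 and Phf8-KO2 (log2 fold change 0.01, SE 0.30, edgeR adjusted p = 0.979). Hnrnpa1 starts 616 bases from Cbx5 and had 101, 119 and 106 CPM (0.16, SE 0.19, adjusted p = 0.616). The TRAMP value of Hnrnpa2b1, like that of Cbx3, lay between the Phf8-KO values, and Hnrnpa1, like Cbx5, was higher in both pools. Slc27a5, which starts 922 bases from Trim28, was listed at 0, 0.563 and 0.0604 CPM, and C2, beside Ehmt2, was under the 3-count floor in every library.

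Trim28, the corepressor, showed the largest difference of the well-counted members. It had 2389 counts in TRAMP, 5186 in Phf8-KO1 and 6591 in Phf8-KO2, or 82.7, 195 and 199 CPM. The Phf8-KO pools did not differ beyond counting error (ratio 1.02, 0.985 to 1.06) and both lay far above TRAMP, at 2.35 times (2.24 to 2.47) and 2.41 times (2.30 to 2.52). The mean of 197 ± 3.03 CPM (n = 2) gave a log2 fold change of 1.25 (SE 0.19), with an adjusted p of 0.101 by edgeR and 0.000143 by DESeq2. Its protein partner Setdb1 was at 1.13 times TRAMP over the same libraries.

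**Figure D3:**
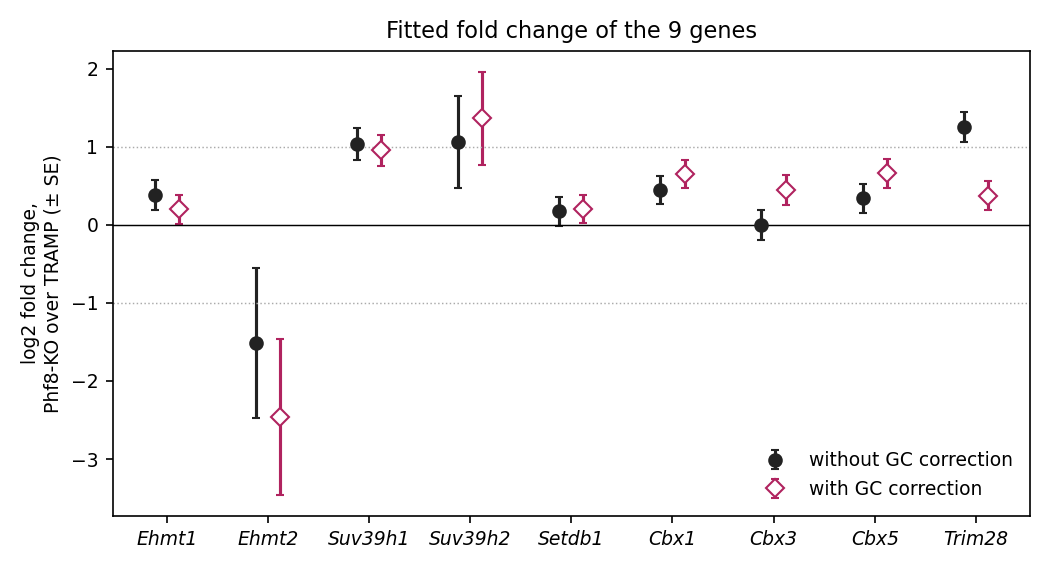
Log2 fold change of each member, Phf8-KO minus TRAMP, with whiskers of 1 SE on either side, from the edgeR fit without and with a correction for GC. Trim28 moves from 1.25 to 0.38 with the correction, Suv39h1 from 1.04 to 0.96, and Cbx1, Cbx3 and Cbx5 move up.

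The members differ widely in base composition, and across all genes the fold changes followed it. The transcript of Trim28 was 59.6% GC, that of Ehmt2 60.8%, Ehmt1 51.2%, Suv39h1 49.97%, Setdb1 48.3%, Cbx1 44.85%, Suv39h2 43.0%, Cbx5 42.6% and Cbx3 38.7%. The median log2 fold change was −0.47 in the 1434 genes with the lowest GC and 0.92 in the 1433 with the highest. Trim28 at 1.25 stood within the middle spread of the 563 genes whose GC was within 1 percentage point of its own (median 0.91, quartiles 0.36 and 1.45). Suv39h1 at 1.04 stood above the upper quartile of its 1573 neighbors in GC (median 0.07, quartiles −0.43 and 0.53). Suv39h2 at 1.06, Cbx5 at 0.34 and Cbx1 at 0.45 also stood above the upper quartile of theirs (0.08, 0.07 and 0.25), as did Cbx3 at −0.0037, whose neighbors had a median of −0.55 and an upper quartile of −0.18.

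Removing the trend with GC from each library, an alternative chosen after the trend was seen, reordered the members. Trim28 went to 0.38 (SE 0.18, edgeR adjusted p = 0.328). Suv39h1 stayed near its value, at 0.96 (SE 0.20, adjusted p = 0.173), and Cbx1 and Cbx5 went to 0.66 each (SE 0.18 and 0.19, adjusted p = 0.194 and 0.197). Cbx3 went to 0.45 (SE 0.19, adjusted p = 0.288), Ehmt1 to 0.20 and Setdb1 to 0.20. Suv39h2 became the highest at 1.36 (SE 0.60, adjusted p = 0.292), and Ehmt2 went to −2.46 (SE 0.9995, adjusted p = 0.271). With this correction 8 members, all but Ehmt2, were higher in both Phf8-KO pools, beside 37.4% of all genes, 3 members (Suv39h1, Cbx1 and Cbx5) had an unadjusted p under 0.05, beside 10.1%, and edgeR called 0 members, beside 0.0% higher and 0.0236% lower. The median over the members was 0.45 and that over all genes −0.04. Which of the fits is nearer to the RNA in the tissue was not tested, since GC and genotype separate the same libraries.

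**Figure D4:**
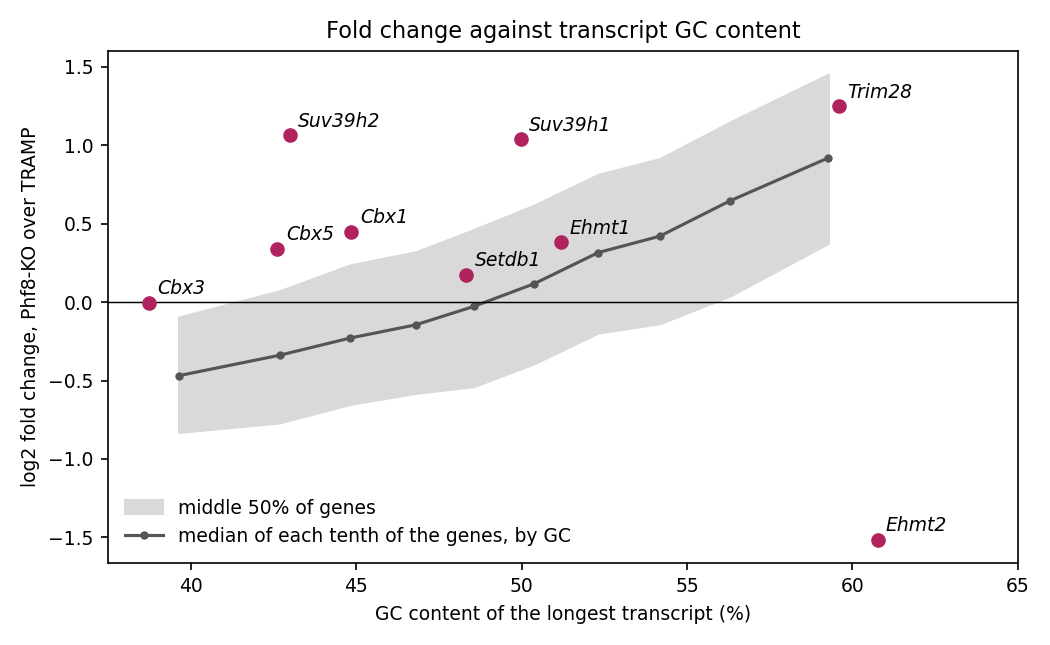
Log2 fold change, Phf8-KO minus TRAMP, against the percentage of G and C in the longest transcript, with the medians (line) and quartiles (band) of 10 GC groups of nearly equal size over 14331 genes and the 9 members as labelled points. The line climbs from −0.47 to 0.92, Trim28 lies near it, and Suv39h1, Suv39h2 and the HP1 genes lie above it, and Ehmt2 far below.

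Levels of different genes were compared per kilobase of exon. In TRAMP the order was Trim28 with 19.9 CPM per kb, Cbx1 with 19.3, Cbx5 with 15.4, Setdb1 with 7.93, Ehmt1 with 7.55, Cbx3 with 5.72, Suv39h1 with 3.26 and Suv39h2 with 0.455. Ehmt2 was left out of the order because its count cannot be read as a level. In the Phf8-KO pools Trim28 led with 47.3 ± 0.729 CPM per kb (SD, n = 2), ahead of Cbx1 with 26.3 ± 0.159 and Cbx5 with 19.5 ± 0.331. Ehmt1 (9.84 ± 0.746) and Setdb1 (8.96 ± 0.444) were within 2 SD of each other, and Suv39h1 (6.69 ± 0.206) ranked above Cbx3 (5.71 ± 0.296) in both pools by this length, with the reads of the Cbx3 copies not included. The order depended on the length used. Per kilobase of the longest transcript, Cbx1 was above Trim28 in TRAMP, Cbx3 was above Setdb1 in every library, at rank 4 in TRAMP and 5 in both Phf8-KO pools, and Suv39h1 lay below Cbx3 in every library. HP1β made up 47.8% of the HP1 reads per kb in TRAMP, 51.0% in Phf8-KO1 and 51.2% in Phf8-KO2, HP1α 38.1%, 37.4% and 38.2%, and HP1γ 14.2%, 11.5% and 10.7%. The HP1γ share rests on the Cbx3 row alone, which its copies outnumber, and was 18.9%, 15.4% and 14.3% by the longest transcript. Suv39h1 was 7.16, 8.83 and 5.80 times Suv39h2 (11.9, 14.6 and 9.62 times by the longest transcript), and the TRAMP ratio lay between the Phf8-KO ratios by either length.

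The proteins that work with the members were read from 10 lists of 74 genes, 59 of which were tested. None passed edgeR's test. With an unadjusted p under 0.05 there were 13 higher and 11 lower genes (14.9% and 12.2% of all genes), and DESeq2 called 10 higher and 4 lower (9.42% and 4.59% of all genes). Medians ran in opposite directions from list to list.

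Among partners of HP1 and of heterochromatin, 8 of 13 tested genes were higher in both pools and 4 lower, beside 40.8% and 42.8% of all genes, 4 had an unadjusted p under 0.05 in the higher direction and 1 in the lower, beside 14.9% and 12.2%, and the median log2 fold change was 0.43 (0.48 with the GC correction). Adnp, among the 8, had 5, 21 and 16 counts and passed the low-count filter only through the Phf8-KO pools. Uhrf1, a reader of H3K9 methylation and of hemimethylated DNA, had 31.9, 120 and 122 CPM in TRAMP, Phf8-KO1 and Phf8-KO2 (log2 fold change 1.92, SE 0.19, edgeR adjusted p = 0.101). Incenp, the chromosomal passenger protein that binds HP1, had 14.7, 50.2 and 52.8 CPM (1.80, SE 0.20, adjusted p = 0.101). Both were several times higher in the Phf8-KO pools, which lay close together, and both stayed above 1 with the GC correction (1.53 and 1.34). All 5 Polycomb CBX genes, relatives whose chromodomains read the H3K27 mark, were higher in both pools, beside 40.8% of all genes. They were led by Cbx6 with 104, 216 and 264 CPM (1.21, SE 0.24, adjusted p = 0.108) and Cbx2 with 10.3, 20.3 and 21.6 (1.03, SE 0.26, adjusted p = 0.128). Their median went from 0.73 to 0.09 with the GC correction. Of the H4K20 methyltransferases, Suv420h2, whose protein acts after HP1 at centromeric repeats, had 27.5, 57.8 and 72.9 CPM (1.25, SE 0.25, adjusted p = 0.107, 0.34 with the correction). Kmt5a had 74.9, 132 and 167 CPM (0.99, SE 0.24, adjusted p = 0.127, 0.93 with the correction).

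Medians were below 0 for the partners of SETDB1 and for the KRAB zinc finger genes. Of 7 genes of SETDB1 and the HUSH complex, 4 were lower in both pools and 1 higher, beside 42.8% and 40.8% of all genes. With an unadjusted p under 0.05, 3 were lower and 0 higher, beside 12.2% and 14.9% of all genes. The median was −0.45 (−0.02 with the GC correction). Mphosph8, the HUSH chromodomain protein that reads H3K9 methylation, had 81.5, 45.2 and 45.9 CPM (log2 fold change −0.84, SE 0.17, edgeR adjusted p = 0.109, −0.52 with the correction). Atf7ip2, a relative of the SETDB1 cofactor ATF7IP, passed the low-count filter only through TRAMP. It had 7.72, 0.150 and 0.302 CPM (−5.05, SE 0.68, adjusted p = 0.101) and was at −4.67 with the correction. Both had their lowest values in the Phf8-KO pools, where Setdb1 was at 1.13 times TRAMP. Of 6 tested KRAB zinc finger genes, 5 were lower in both pools, beside 42.8% of all genes (median −0.56, and −0.23 with the correction). Zfp445, which keeps imprinted loci silent through TRIM28, had 224, 112 and 114 CPM (−0.99, SE 0.18, adjusted p = 0.103, −0.70 with the correction). Zfp932 had 81.4, 31.5 and 39.7 CPM (−1.19, SE 0.22, adjusted p = 0.105, −0.71 with the correction). The TRIM28 relatives Trim24 (0.68, SE 0.22, adjusted p = 0.164) and Trim33 (−0.47, SE 0.19, adjusted p = 0.219) lay on opposite sides.

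**Figure D5:**
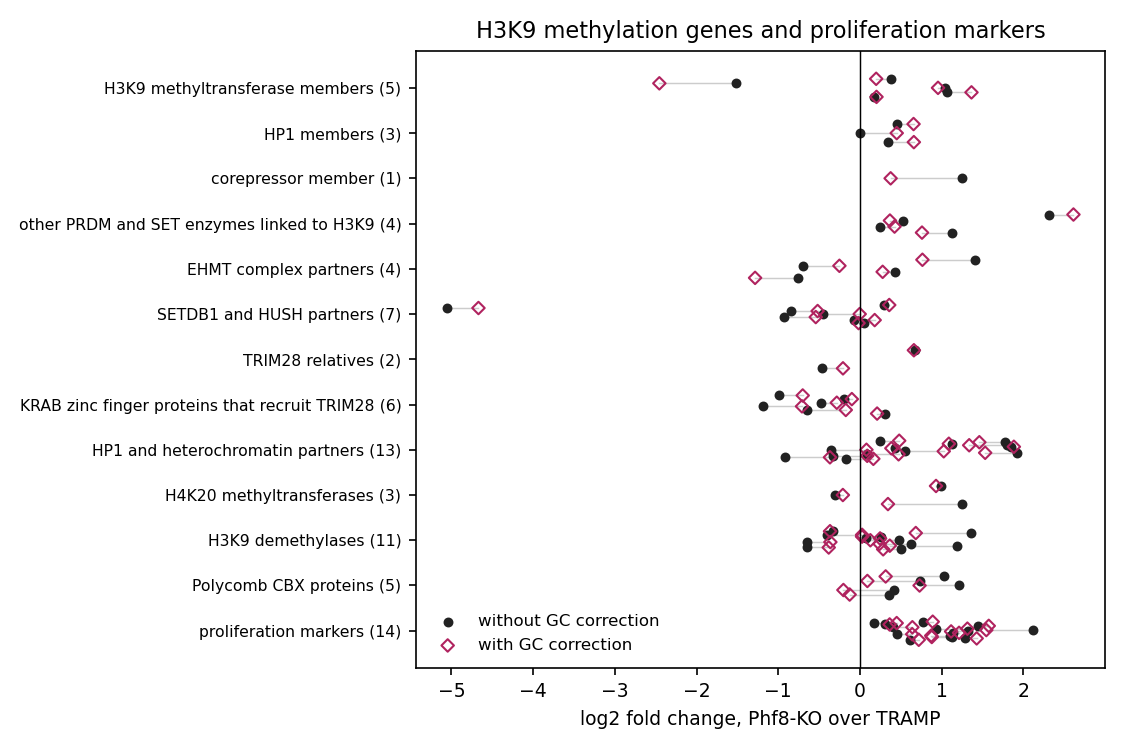
Log2 fold changes, Phf8-KO minus TRAMP, of the members, of tested genes in the lists of partner proteins and relatives, and of proliferation markers. Each gene has a filled point without the GC correction and an open diamond with it, joined by a line. Without the correction the HP1 partners have a median of 0.43, the SETDB1 and HUSH partners −0.45 and the KRAB zinc finger genes −0.56. These medians are not drawn.

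Partners of the EHMT heterodimer split. Wiz, the zinc finger protein that holds the heterodimer together, had 22.6, 54.3 and 65.9 CPM (log2 fold change 1.41, SE 0.23, edgeR adjusted p = 0.101, 0.76 with the GC correction). Zfp644, its other zinc finger partner, had 67.5, 42.5 and 40.9 CPM (−0.69, SE 0.18, adjusted p = 0.130, −0.25 with the correction). Among 4 other SET and PRDM genes linked to H3K9, 3 were higher in both pools, beside 40.8% of all genes. With an unadjusted p under 0.05 there were 0, beside 14.9% of all genes higher and 12.2% lower. DESeq2 called 0, beside 9.42% higher and 4.59% lower. Prdm2 had 58.0, 70.7 and 96.2 CPM. Setdb2, among the 3 higher, passed the low-count filter only through Phf8-KO2. It had 2, 2 and 21 counts, or 0.0692, 0.0751 and 0.634 CPM, so its excess in Phf8-KO1 rests on library scaling alone. On the erasing side, 6 of 11 H3K9 demethylases were higher in both pools and 4 lower, beside 40.8% and 42.8% of all genes. Their median was 0.25 (0.13 with the correction). Phf8 itself, the targeted gene, was among the 4 lower. Kdm4d, among the 6 higher, had 9, 9 and 18 counts, so its excess in Phf8-KO1 rests on library scaling alone. Phf2, a relative of Phf8, had 29.0, 71.6 and 77.2 CPM (1.36, SE 0.20, adjusted p = 0.101, 0.68 with the correction). Kdm7a, another relative of Phf8, was lower in both pools, at 66.6, 38.7 and 61.8 CPM (−0.40, 0.03 with the correction). Kdm4c, a trimethyl eraser, had 78.3, 47.3 and 52.5 CPM (−0.65, SE 0.18, adjusted p = 0.145, −0.38 with the correction). Its relatives Kdm4a (0.62, 0.24 with the correction) and Kdm4b (1.18, 0.36 with the correction) were higher in both pools.

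Germline genes, whose silencing in the body depends on H3K9 methylation in mice, were mostly too low to test, with 4 of 16 past the filter. Dazl, an RNA-binding protein of germ cells, had 12.6, 3.98 and 2.17 CPM, and Taf7l, a testis form of a general transcription factor subunit, had 5.99, 0.188 and 0.573. Both were highest in TRAMP. The list summed to 20.4, 4.39 and 3.29 CPM.

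Uhrf1 and the chromatin assembly factor gene Chaf1a are known to be expressed mostly in dividing cells, and proliferation markers are given here beside Suv39h1. Chaf1a, named after its values were seen, had 20.5, 67.3 and 73.2 CPM in TRAMP, Phf8-KO1 and Phf8-KO2, in the same direction as Suv39h1. All 14 were higher in both Phf8-KO pools, beside 40.8% of all genes, 10 had an unadjusted p under 0.05 in that direction, beside 14.9%, 0 passed edgeR's test and DESeq2 called 7 higher, beside 9.42%. They summed to 1120, 1915 and 1762 CPM. Mki67 had 220, 386 and 367 CPM (log2 fold change 0.77, SE 0.23, edgeR adjusted p = 0.150), Plk1 had 5.43, 26.1 and 21.1, and Mcm5 had 82.4, 186 and 175. The median log2 fold change of the list was 1.02, and 0.88 with the GC correction, near the 1.04 and 0.96 of Suv39h1. The part of cell division in the values of Suv39h1 was not tested.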

How the data were processed

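RNA was sequenced from 1 TRAMP and 2 Phf8-KO pools of 3 mice each. Per the authors, HISAT2 placed filtered reads on GRCm38 and HTSeq counted reads by gene, and the deposited table holds the raw counts. HTSeq's strand setting and the annotation are not given in the sources used here. The counts were tested with edgeR 4.0.16 (R 4.3.3) by the quasi-likelihood method, with TMM scaling, filterByExpr and Benjamini-Hochberg adjustment over 18216 genes. A call needed an adjusted p under 0.05 and a fold over 2. With 1 TRAMP pool there was 1 residual degree of freedom, and p-values rest only on the spread between the Phf8-KO pools. Each method draws that spread from the gene itself and, by shrinkage, from all genes. Ratios of libraries carry exact 95% Poisson intervals, which cover counting error only. Alternatives were other scalings and filters, DESeq2 1.42.0 (the authors' tool), limma-voom (limma 3.58.1), a likelihood ratio test and a GC correction (a lowess of each library's log ratio on transcript GC, for 93.2% of tested genes). The fits were tested on simulated data. Exon lengths, overlaps, copies (found with BLAST) and GC came from GENCODE vM21, and promoters from RefSeq.

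Members and lists were chosen with earlier results of these data known. The rule for genes named beyond the members took the 2 with the smallest p per pathway or proliferation list, divergent neighbors within 1 kb, Phf8, Mki67 and the 5 genes nearest in pattern to the member with the largest fold. The last were not printed, tissue marker lists are given as sums, and other genes were named after their values were seen.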

Additional observations from a re-analysis of the deposited data

How the results depend on the processing

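The number of members called higher was 0 in the edgeR quasi-likelihood test, 2 (Suv39h1 and Trim28) with no filter on low counts, 2 with DESeq2 and 1 (Trim28) with edgeR's likelihood ratio test. Adjusted p was 0.0317 and 0.0123 for Suv39h1 and Trim28 without the filter and 0.00897 for Trim28 in the likelihood ratio test, and over all genes these settings called 1430, 1533 and 1096 higher against 0. Upper quartile scaling moved the median log2 fold change of the members to 0.23 from 0.38, and that over all genes to −0.14 from 0.01. Members higher in both Phf8-KO pools numbered 6 with that scaling and 8 with library size only, against 7 with TMM. Cbx3 at −0.0037 changed sign with library size only (0.0725), no filter (0.0178), DESeq2 (0.0085), the GC correction (0.45) and in the range over leaving out each Phf8-KO pool (−0.0575 to 0.0483). Over the same pools the median of the members ran from 0.32 to 0.45, Suv39h2 from 0.77 to 1.31, Suv39h1 from 1.01 to 1.07 and Trim28 from 1.24 to 1.27, and members higher than TRAMP numbered 7 or 8. Without Ehmt2 and Cbx3, chosen after their limits were seen, the median was 0.45. With the longest transcript as length, the Cbx5 share of HP1 reads per kb was 25.3%, 24.9% and 25.5% against 38.1%, 37.4% and 38.2%, and the ratio of Suv39h1 to Suv39h2 was 11.9, 14.6 and 9.62 against 7.16, 8.83 and 5.80. Over these settings 97 fold changes of single members kept direction, and kept their side of the threshold wherever an adjusted p was given. Leaving out a pool gave none, nor did DESeq2 for Ehmt2. Another 5 crossed the threshold and 5, all of Cbx3, changed sign. No paired analysis was possible because there was 1 TRAMP library, so the groups share only 1 replicate number. With 58 counts in TRAMP, Suv39h2 is limited by depth.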

Other observations

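Some genes followed the members closely over the 3 libraries, by Euclidean distance of centred log2(CPM + 0.5) values. For Ehmt2, the member with the largest log2 fold change, none are given, since under 1 CPM the offset of 0.5 shapes its pattern. For Trim28 and Suv39h1, which were added after their values were seen, the nearest were Pitpnm2, Pkp3, Pxn, Cpsf1 and Tbx3 (0.0165 to 0.0236) and Gab2, Rfc5, Gcn1l1, Smarcb1 and Rhobtb2 (0.0107 to 0.0152). With 3 libraries, such likeness is a description.

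Adnp and Daxx, partners of HP1 that were named after their values were seen, were nearly uncounted like Ehmt2. They had 5, 21 and 16 counts and 2, 2 and 6 counts, respectively, in TRAMP, Phf8-KO1 and Phf8-KO2. The centre of Daxx lies at −994 kb from that of Ehmt2. Kifc1 and Zbtb22, the protein-coding genes listed on either side of Daxx, were also under 1 CPM in every library. Whether the counts of Adnp and Daxx can be read as RNA levels was not tested.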
